A study of Mus musculus with 2 samples.

Results

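The POU class 3 genes examined here were Pou3f1, Pou3f2 and Pou3f3, chosen by name as 3 of the 22367 protein-coding genes of the GENCODE vM1 annotation. A p300 peak was counted for a gene when its midpoint lay inside the gene body or within 1 Mb of the transcription start site. Where a gene had several start sites, that of the transcript with the most coding bases was taken. By this rule 34 of the 6629 deposited peaks belonged to the family: 15 to Pou3f1, 7 to Pou3f2 and 12 to Pou3f3. The peaks came from chromatin immunoprecipitation and sequencing (ChIP-seq) with the anti-p300 antibody C-20 on the dorsal cerebral wall of Swiss Webster embryos at embryonic day 14.5. Tissue weighing 0.15 g, from a number of embryos not given in the sources used here, was freed of medial structures such as the hippocampal primordium, so the map averages progenitors and neurons of the neocortex. There was 1 p300 library and 1 input library from the same chromatin, neither treated beyond fixation, and no replicate. The list gives only the coordinates of each peak, so the reads behind a single peak are unknown, and p300 binding does not measure expression of the neighbouring gene.

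Class 3 POU proteins bind DNA through a POU-specific domain joined by a flexible linker to a POU homeodomain, and recognise octamer-like sequences, often beside Sox proteins. Pou3f2 (also called Brn2) and Pou3f3 (Brn1) act together in the embryonic neocortex, where they promote neurogenesis, the production of upper-layer neurons and their migration. Pou3f1 (Oct6 or SCIP) is known from cortical projection neurons and from myelinating Schwann cells, and the remaining class 3 gene, Pou3f4 (Brn4), from the ventral forebrain and inner ear. The co-activator p300 is a histone acetyltransferase found at active enhancers, and its distal peaks are therefore read as candidate enhancers. All 4 genes are annotated with a single exon, so none has an intron that could hold a peak.

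The sequences nearest to Pou3f1 and Pou3f3 are shown first, as the 300 bases around the midpoint of the closest peak on the plus strand of NCBIM37, the same assembly as mm9. Capitals would mark any match to the short motifs spelled out with the motif results, and neither stretch holds a match.
Pou3f1 peak 4500, chr4:124349847-124350146: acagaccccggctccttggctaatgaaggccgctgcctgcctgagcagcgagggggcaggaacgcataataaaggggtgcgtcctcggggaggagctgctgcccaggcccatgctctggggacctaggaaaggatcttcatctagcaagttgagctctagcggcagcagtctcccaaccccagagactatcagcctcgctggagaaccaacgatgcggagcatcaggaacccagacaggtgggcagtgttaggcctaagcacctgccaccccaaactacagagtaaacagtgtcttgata
Pou3f3 peak 68, chr1:42743349-42743648: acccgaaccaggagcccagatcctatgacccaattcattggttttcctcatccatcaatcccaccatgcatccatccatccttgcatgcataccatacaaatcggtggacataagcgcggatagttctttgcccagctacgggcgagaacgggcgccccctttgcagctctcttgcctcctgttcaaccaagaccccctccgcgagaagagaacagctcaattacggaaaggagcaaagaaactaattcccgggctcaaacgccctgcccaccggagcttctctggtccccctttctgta

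Pou3f1 (ENSMUSG00000078236) occupies 124334896 to 124337899 on chromosome 4 (plus strand), in the most gene-dense of the 3 neighbourhoods, with the start sites of 25 other protein-coding genes inside its window. The annotation also lists a pseudogene model of the same name over the same bases, which was not counted as a gene here. The closest peak, number 4500, covered 1899 bp from 124349047 to 124350945, with its midpoint 15.1 kb downstream of the start site in intergenic sequence. On the other side, peak 4499 (959 bp) lay 30.6 kb upstream and peak 4498 (1798 bp) 64.1 kb upstream. These 3 were the only peaks within 100 kb of the gene. The protein-coding start site nearest to peaks 4499 and 4498 was that of 3100002H09Rik, 16.3 and 17.2 kb away.

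From peak 4498 up to peak 4493 the peaks upstream of Pou3f1 were spaced by 82.7 to 144.6 kb. Peak 4497 (958 bp) sat 179.6 kb from the start site, inside the non-coding gene 1700057H15Rik and on none of its exons. Peaks 4496, 4495 and 4494 followed at 297.3, 380.0 and 464.3 kb, with widths of 1098, 1737 and 782 bp. The series ended with a close pair, 4493 (1007 bp) at 609.0 kb and 4492 (2019 bp) at 621.7 kb. Peak 4492, from 123712208 to 123714226, was the widest of the locus and wider than 95.8% of all p300 peaks. No peak was listed between it and the upstream edge of the window, a stretch in which 7 protein-coding genes start, the first of them Rragc.

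Downstream of peak 4500 the Pou3f1 window held 518.5 kb without a peak, a stretch in which 16 protein-coding genes start, from Utp11l to Zc3h12a. The 6 peaks beyond it lay 533.6 to 877.7 kb from Pou3f1. Peaks 4501, 4502 and 4503 (803, 960 and 1208 bp) were nearest to Zc3h12a or Grik3. Peaks 4504 (953 bp), 4505 (1384 bp) and 4506 (1188 bp) lay within 44.7 kb of the start of Grik3, a kainate-type glutamate receptor subunit, and 4506 was intronic to it. At least 17 other protein-coding start sites were nearer to each of these 6 peaks than that of Pou3f1.

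Pou3f2 (ENSMUSG00000052621, minus strand of chromosome 4, 22413791 to 22415480) had no peak in its immediate surroundings. The closest, peak 4176, covered 1414 bp and lay 347.4 kb upstream of the start site. The next peak on the downstream side was 798.6 kb away, so 1146 kb between midpoints held the gene and no listed peak. Among neighbouring peaks genome-wide, 7.82% were at least as far apart. The start site of Pou3f2 was not unusual in this respect, as 41.3% of the 22350 protein-coding start sites on chromosomes with peaks had their nearest peak at least as far away. The median over those start sites was 262.2 kb.

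The 5 upstream peaks of Pou3f2 fell into a single peak and a pair of pairs. Peak 4177 (1376 bp, 22897325 to 22898700) and peak 4178 (2044 bp, 22899708 to 22901751) had midpoints 2.72 kb apart, 482.5 and 485.2 kb from the start site, and 4178 was the widest of all 34. Peaks 4179 (542 bp, 661.6 kb) and 4180 (1864 bp, 685.3 kb) formed the other pair, and 4179 was the narrowest, with 1.06% of all p300 peaks narrower. For each of the 5, Pou3f2 was the nearest protein-coding start site, since no other such gene starts within 1 Mb upstream. Both downstream peaks, 4175 (1073 bp, 798.6 kb) and 4174 (855 bp, 876.6 kb), were nearer to Prdm13, which encodes a transcriptional regulator of dorsal neural progenitors. Peak 4175 lay 3.72 kb from its start.

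Pou3f3 (ENSMUSG00000045515) occupies 42753991 to 42757052 on chromosome 1 (plus strand). Its closest peak was number 68, which covered 1390 bp from 42742804 to 42744193, 10.5 kb upstream of the start site. Next upstream were peak 67 (805 bp) at 225.1 kb and peak 66 (1851 bp) at 439.2 kb, the widest of the locus, from 42313820 to 42315670. The nearest protein-coding start site to peak 67 was that of 2610017I09Rik, 194.8 kb away. For peak 66 it was that of Gm9915, 28.2 kb away. Downstream, 671.7 kb passed from peak 68 before peak 69 (844 bp) at 661.2 kb from the start site, nearest to Nck2. Peak 70 (939 bp), at 997.9 kb, was just inside the limit of 1 Mb, and the next peak upstream past that limit lay 1044.7 kb away.

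The remaining 7 peaks of Pou3f3 made the densest run in the family. Peaks 59 to 65 stood 954.0 to 761.0 kb upstream, with midpoints spanning 193.0 kb and widths of 1841, 1188, 1743, 1582, 1667, 1115 and 1309 bp. All were wider than the genome-wide median. The run began at 41799082 and ended at 41993664 in intergenic sequence, and the nearest protein-coding start site to each was that of the model gene Gm9915, 293.6 to 486.6 kb away. With genes known only by a model or clone name left aside, Pou3f3 was the nearest start site for 5 of the 7, and Tmem182 for peaks 59 and 60. Of all p300 peaks, 5.93% are followed by at least 6 more within 250 kb, as peak 59 is.

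**Figure D1:**
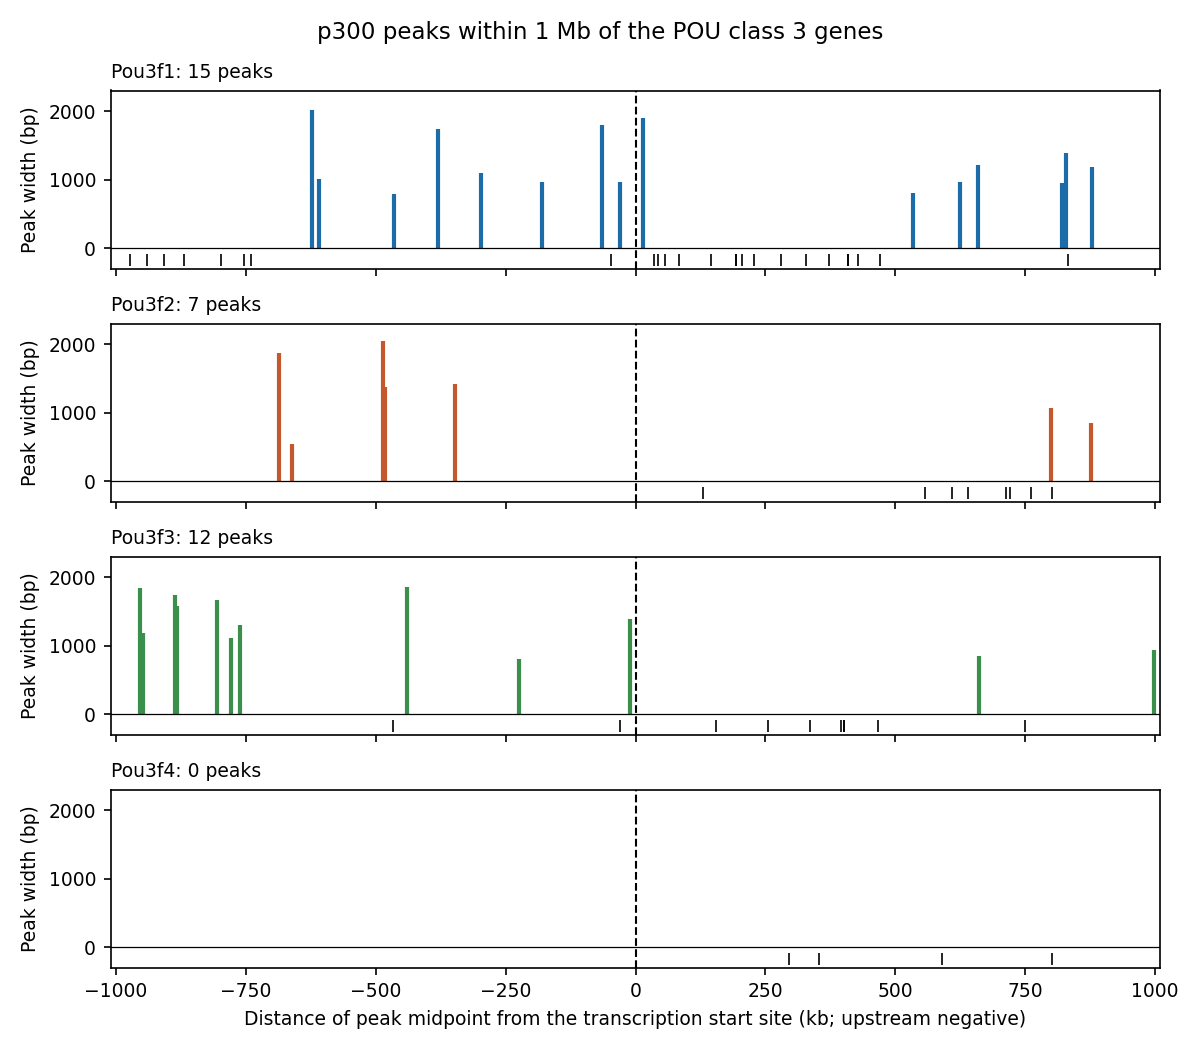
Peaks within 1 Mb of each POU class 3 gene. The x axis is the distance of the peak midpoint from the start site in kb (negative is upstream), bar height is the peak width in bp, the dashed line marks the start site and ticks under the axis mark the starts of other protein-coding genes. The nearest peaks of Pou3f1 and Pou3f3 stand at 15.1 and -10.5 kb, Pou3f2 has none within 347.4 kb, and Pou3f4 has none at all.

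To ask whether the genes had more peaks than their windows would hold by length alone, each count was compared with the window's share of the assembled genome over all protein-coding genes. Pou3f1 had 15 peaks where 5.18 would be expected, a fold of 2.89 (95% interval 1.62 to 4.77), and passed the test (exact binomial test, one-sided, adjusted p = 0.00807 by the Benjamini-Hochberg method). Of all 22367 genes, 6.87% passed. Pou3f3 had 12 peaks, a fold of 2.32 (1.20 to 4.05) that did not pass (adjusted p = 0.0809, same exact test). Pou3f2 had 7, a fold of 1.35 (0.543 to 2.78), and did not pass either (adjusted p = 0.908, exact test). At least as many peaks were found for 4.02% of genes in the case of Pou3f1, 8.73% for Pou3f3 and 29.1% for Pou3f2. Intervals are exact Poisson intervals and cover counting error only, and the test takes peaks as independent although they cluster.

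The count at Pou3f1 was shared with its neighbours. Of the 25 other protein-coding genes that start in its window, 17 passed the same test. Their windows and those of the 8 that did not pass held 10 to 16 peaks, and 7 of the 25 had more than Pou3f1. Of the 9 around Pou3f3, 1 passed and had 14 peaks, and none of the 8 around Pou3f2 did. A peak of the Pou3f1 window lay within 1 Mb of a median of 29 protein-coding start sites, against 5 for Pou3f3, 2 for Pou3f2 and 12 for all peaks. The call at Pou3f1 was lost at the rate of chromosome 4 (fold 2.22, adjusted p = 0.0652, exact test, where 5.22% of genes passed) and when only peaks of median width or wider were counted (8 peaks, fold 3.08, adjusted p = 0.101, exact test). With those wide peaks Pou3f3 passed (9 peaks, fold 3.46, adjusted p = 0.0405, exact test, against 3.65% of all genes). Of these 9, 7 belong to the single run of peaks 59 to 65, which the test takes as independent. With peaks of all widths and those under 5 kb apart joined, Pou3f3 had 10 and did not pass (fold 2.09, adjusted p = 0.230, exact test).

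**Figure D2:**
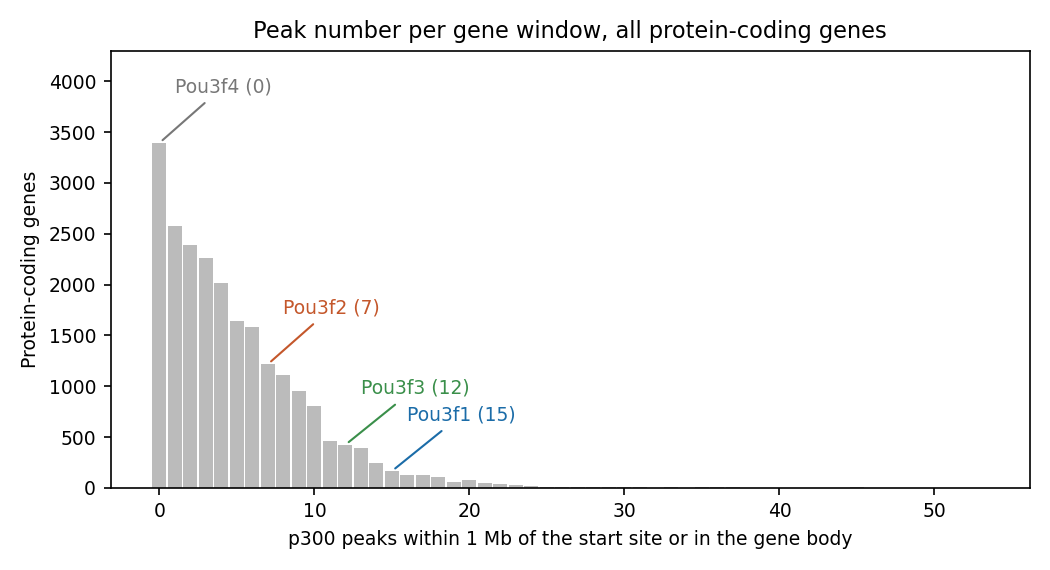
Number of p300 peaks per gene window. The x axis is the number of peaks within 1 Mb of the start site or in the gene body, and bars give the number of protein-coding genes with that many. Pou3f1 (15) and Pou3f3 (12) stand in the upper tail, Pou3f2 (7) is exceeded or matched by 29.1% of genes, and Pou3f4 is at 0.

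Closer to the genes Pou3f1 again had the most peaks. Within 100 kb Pou3f1 had 3 peaks (fold 5.79), Pou3f3 had 1 (fold 1.93) and Pou3f2 had 0. Within 250 kb the numbers were 4, 2 and 0, and within 500 kb they were 7, 3 and 3. None of these counts passed the test, the lowest adjusted p being 0.197 for Pou3f1 within 500 kb (exact binomial test). Of all genes, 4.09% passed within 500 kb, 2.09% within 250 kb and 0.885% within 100 kb. Of the 34 peaks, 21 lay 500 kb or more from the gene.

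**Figure D3:**
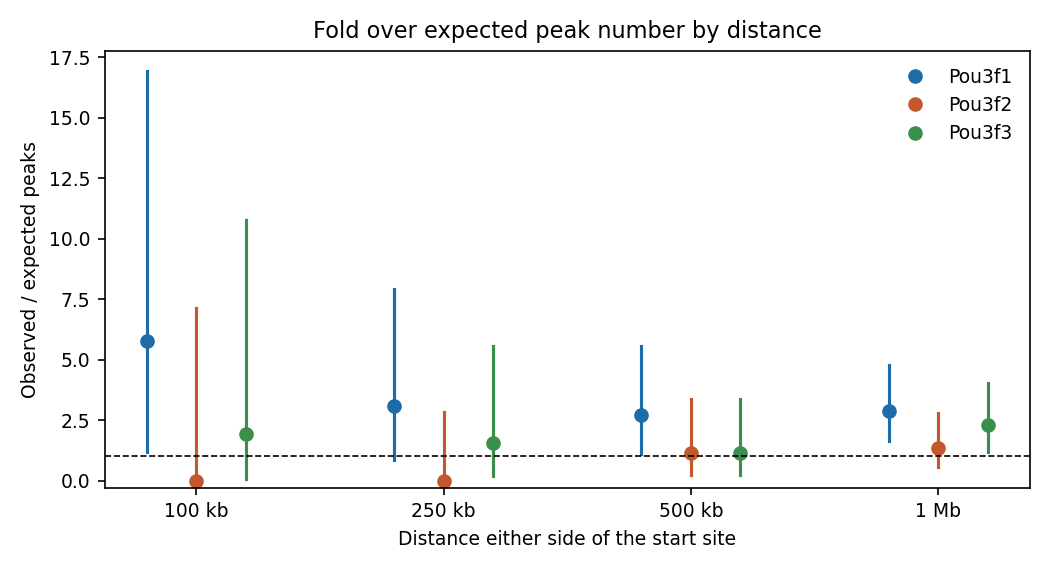
Observed over expected number of peaks for each gene (y axis) at growing distances either side of the start site (x axis). Points are the fold, lines its exact 95% Poisson interval and the dashed line a fold of 1. Pou3f1 stands above 1 at each distance, and its interval is widest at 100 kb, where 3 peaks were counted.

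Regulatory domains, which reach from each gene to its neighbours, gave smaller numbers. The study used GREAT's own domains, which were not used here. The paper lists more peaks for Sox4 and Sox11 than the domains drawn here held, so these counts are not by its measure. Drawn between protein-coding genes, the domain of Pou3f1 was 0.0768 Mb long and held 2 peaks, that of Pou3f3 was 0.174 Mb and held 1, and that of Pou3f2 was 1.13 Mb and held 5. None passed the exact test (adjusted p = 0.603, 1 and 1), where 1.13% of all genes did. The short domains ended at genes known only by a clone name, 3100002H09Rik for Pou3f1 and 2610017I09Rik for Pou3f3. Without such genes, the domain of Pou3f1 reached 0.774 Mb, from the side of Rragc to Utp11l, and held 9 peaks, a fold of 4.49 that passed (adjusted p = 0.0227, exact test, 1.26% of all genes passing). That of Pou3f3 held 10 peaks in 1.15 Mb, a fold of 3.36 that did not pass (adjusted p = 0.0713, exact test), and Pou3f2 kept its 5.

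The remaining class 3 gene, Pou3f4 (ENSMUSG00000056854, X chromosome, 108009729 to 108010910), had no listed peak within 1 Mb, where 5.04 would be expected from length. Its nearest peak was 9328 kb away, a distance reached by 0.0894% of protein-coding start sites. Over the 6 pairs of class 3 genes, each member differed from Pou3f4 in peak number (two-sided exact binomial test, adjusted p = 0.000374 for Pou3f1, 0.00148 for Pou3f3 and 0.0314 for Pou3f2). Within 500 kb none of the 3 differences passed (adjusted p = 0.0953, 0.4125 and 0.4125, exact test), and that of Pou3f2 was also lost with joined peaks (0.0627) and wide peaks (0.125). The whole X chromosome was sparse, with 76 peaks or 0.469 per Mb against 2.59 per Mb genome-wide, and at its own rate 0.912 peaks would be expected for Pou3f4, so the gene and its chromosome cannot be told apart here.

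The members themselves did not pass when compared with each other. The ratio of Pou3f1 to Pou3f2 was 2.14 (exact 95% interval 0.822 to 6.21, adjusted p = 0.201). For Pou3f1 to Pou3f3 it was 1.25 (0.546 to 2.92, adjusted p = 0.701, exact test), and for Pou3f2 to Pou3f3 it was 0.583 (0.195 to 1.61, adjusted p = 0.431, exact test). The intervals leave room for more than a 2-fold difference in each pair.

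The share of peaks upstream of the start site was counted for each gene. At Pou3f3, 10 of 12 peaks were upstream of the start site (83.3%, exact Clopper-Pearson 95% interval 51.6 to 97.9%). At Pou3f2 this was 5 of 7 (71.4%, 29.0 to 96.3%) and at Pou3f1 8 of 15 (53.3%, 26.6 to 78.7%). The intervals of all 3 genes overlap, but they take peaks as independent although peaks cluster. At Pou3f3, 7 of the 10 upstream peaks belong to a single run spanning 193.0 kb. Within 500 kb, 12 of the 13 peaks were upstream, the exception being peak 4500 beside Pou3f1. No such share was computed over all genes. Within that distance of each of the 3 genes, more protein-coding genes start downstream than upstream. The authors removed peaks on exons and near start sites, and how far this moves the share was not tested.

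Of the 34 peaks, 32 overlapped no annotated gene, 1 lay in an intron of Grik3, 1 in 1700057H15Rik, and none touched an exon. The member gene had the nearest protein-coding start site for 7 peaks: 5 at Pou3f2 and 1 each at Pou3f1 and Pou3f3. Leaving out model and clone names, this number was 18, with 5 at Pou3f1, 5 at Pou3f2 and 8 at Pou3f3. The authors removed peaks on exons or within 2.5 kb of a start site, and 85.3% of the Pou3f1 window, 91.7% of the Pou3f2 window and 95.9% of the Pou3f3 window lay outside such sequence in the annotation used here, against 91.0% genome-wide. Counted over that sequence only, Pou3f1 had a fold of 3.09 (adjusted p = 0.00448, exact binomial test), where 7.53% of all genes passed.

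Peaks at the 3 genes had a median width of 1198 bp, against 1017 bp for all p300 peaks, and 22 of the 34 were at least that wide. The median by gene was 1098 bp at Pou3f1, 1376 bp at Pou3f2 and 1350 bp at Pou3f3. GC content separated Pou3f1 from the other two more clearly. All 15 Pou3f1 peaks, at 46.4 to 56.7%, were above the genome-wide median of 45.2%, compared with 1 of 7 at Pou3f2 (34.9 to 47.2%) and 3 of 12 at Pou3f3 (32.6 to 55.3%). The median over the peaks was 50.2% at Pou3f1, 41.0% at Pou3f3 and 39.8% at Pou3f2, and the windows differed in the same order, with 47.9% GC around Pou3f1, 41.8% around Pou3f3 and 39.7% around Pou3f2. The peak with the highest GC content at Pou3f3, at 55.3%, was number 68, the closest to the gene.

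**Figure D4:**
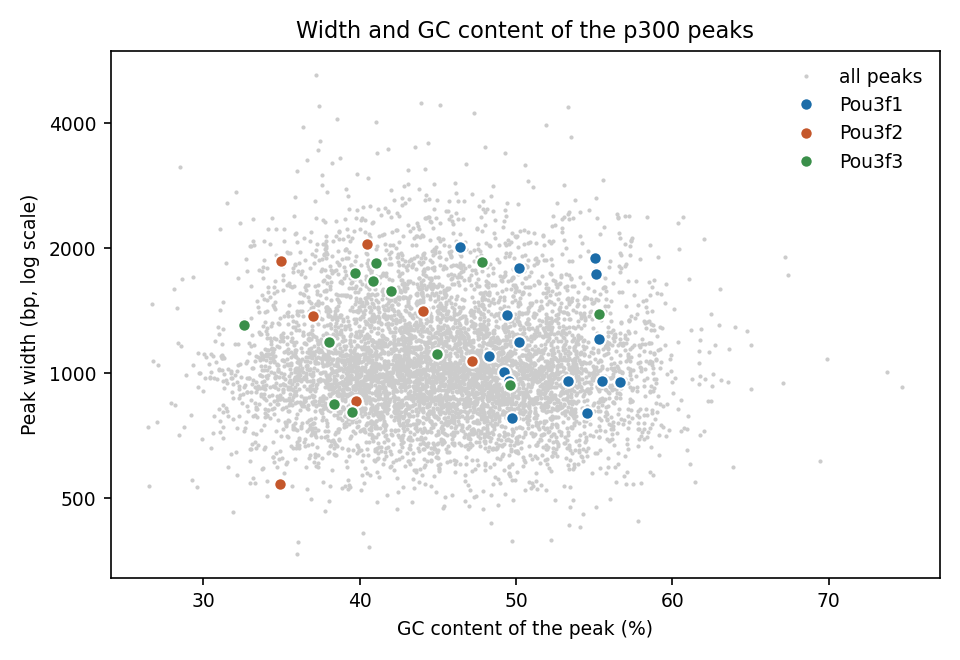
GC content (x axis, %) and width (y axis, bp, log scale) of all 6629 p300 peaks in grey and of the peaks within 1 Mb of each POU class 3 gene in colour. The Pou3f1 peaks lie between 46.4 and 56.7% GC, while most Pou3f2 and Pou3f3 peaks lie to the left of them.

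Neighbouring peaks within a window were a median of 82.7 kb apart, against 128.1 kb over all peaks. Of the 31 neighbouring pairs 12 were closer than 50 kb, against 32.0% over all peaks. Gaps that cross the edge of a window were left out for the 3 genes, which shortens their values, and none were left out over all peaks. A peak of Pou3f3 had a median of 6 others within 250 kb, a peak of Pou3f1 had 4 and a peak of Pou3f2 had 3, where the median over all peaks was 2. The numbers ranged from 0 to 8 at Pou3f3, 2 to 5 at Pou3f1 and 1 to 4 at Pou3f2. At Pou3f3, 7 of the 12 peaks belong to a single run and count each other.

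The peaks were searched on both strands for short POU motifs. The octamer ATGCAAAT occurred in 3 of the 34 peaks (8.82%, 95% interval 1.86 to 23.7% by the exact Clopper-Pearson method) and in 12.9% of all p300 peaks. The site CATNNTAAT occurred in 7 (20.6%, against 20.2% of all peaks), its longer spacing CATNNNTAA in 23 (67.6%, against 51.6%), and the variant ATGCATAT in none (6.14% of all peaks). At least 1 of the 4 was present in 25 peaks (73.5%, 55.6 to 87.1%) and in 64.9% of all peaks. In the 500 bp around each midpoint, a stretch of equal length that reaches outside the narrowest peaks of the list, these shares were 41.2% and 41.3%. By gene, a POU motif was found in 9 of 15 peaks at Pou3f1, 6 of 7 at Pou3f2 and 10 of 12 at Pou3f3. A match is a description of the letters and does not show binding.

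Both octamer-bearing peaks of Pou3f1 lie upstream of it, and the stretches of 100 bases around these octamers are shown because they were the clearest POU matches in the family, chosen after the matches were seen. Capitals mark the POU motifs, here read from the complementary strand as ATTTGCAT. In peak 4497 the octamer runs into a CATNNTAAT site with which it shares 3 bases. Peak 4498, 64.1 kb upstream of Pou3f1, holds a pair of octamers, which start at 124270533 and 124270556. The third sequence is the only octamer at Pou3f2, in the widest peak of the family.
Pou3f1 peak 4497, chr4:124155341-124155440: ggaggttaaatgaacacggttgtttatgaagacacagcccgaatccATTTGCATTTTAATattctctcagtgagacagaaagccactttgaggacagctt
Pou3f1 peak 4498, chr4:124270499-124270598: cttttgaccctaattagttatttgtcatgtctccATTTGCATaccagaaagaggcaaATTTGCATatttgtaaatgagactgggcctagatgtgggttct
Pou3f2 peak 4178, chr4:22901588-22901687: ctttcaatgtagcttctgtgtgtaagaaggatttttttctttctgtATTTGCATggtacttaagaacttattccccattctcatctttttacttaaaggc

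Motifs of other cortical factors were counted in the same way. The homeodomain core TAATTA, which can overlap both POU class 3 forms, was found in 23 of the 34 peaks (67.6%, 49.5 to 82.6% by the exact Clopper-Pearson method) and in 46.7% of all peaks. In the middle 500 bp the shares were 41.2% and 31.3%. By gene the share there was 46.7% at Pou3f1, 57.1% at Pou3f2 and 25% at Pou3f3. The Neurog/Neurod E-box CAGATGG was present in 10 peaks (29.4%, 15.1 to 47.5%), against 44.5% of all peaks, with 6 of the 10 at Pou3f1. For Sox proteins, ACAATG occurred in 21 (61.8%, against 48.3%) and ACAAAG in 22 (64.7%, against 66.3%). The Nfi site TTGGCA was found in 22 (64.7%, against 60.7%) and the Rfx site GTTGCCATG in none (2.61% of all peaks). Over whole peaks, the share in all peaks lay inside the exact 95% interval of the 34 for each of these motifs but the homeodomain core. No test was made, and the intervals take peaks as independent. Peaks of these genes are wider than the genome-wide median, so shares over whole peaks also move with width. GC content differs between the genes as well, and its part in the share of TAATTA was not tested. Peak 4180 of Pou3f2 alone held 5 homeodomain cores and 6 copies of ACAAAG.

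The middle of the widest peak at Pou3f1 and at Pou3f2 follows, as an example of the longest candidate enhancers, with motif matches in capitals. Each stretch holds a single homeodomain core.
Pou3f1 peak 4492, chr4:123713068-123713367: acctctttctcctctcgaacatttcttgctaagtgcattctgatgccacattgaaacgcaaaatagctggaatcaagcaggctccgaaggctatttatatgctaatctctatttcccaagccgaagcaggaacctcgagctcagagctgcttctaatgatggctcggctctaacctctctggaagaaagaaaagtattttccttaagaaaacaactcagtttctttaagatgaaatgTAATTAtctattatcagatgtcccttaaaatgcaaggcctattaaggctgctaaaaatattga
Pou3f2 peak 4178, chr4:22900580-22900879: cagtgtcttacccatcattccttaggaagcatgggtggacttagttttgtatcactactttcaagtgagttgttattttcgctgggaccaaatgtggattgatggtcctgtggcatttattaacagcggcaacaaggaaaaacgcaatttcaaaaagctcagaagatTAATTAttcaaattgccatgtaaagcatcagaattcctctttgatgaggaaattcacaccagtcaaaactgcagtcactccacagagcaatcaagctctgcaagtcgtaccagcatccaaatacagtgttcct

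The 3 genes arose from a common ancestor, so their peaks were aligned with each other. No pair of peaks from different genes aligned at an E value under 1e-05 (blastn, both strands, low-complexity filter on). Against the 6595 other deposited peaks, 6 of the 34 aligned to 15 peaks, over 27 to 121 bp. With alignments this rare, the absence of a pair between the genes says little about their common ancestor. The share of other peaks that align in this way was not counted. The alignment with the highest score involved peak 4492 and was 76 bp long with gaps included, at 88.2% identity.

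Among the other POU genes, none of the 10 tested passed the exact test, either within 1 Mb or by regulatory domain, where 6.87% and 1.13% of all genes passed, so a count of 0 is near the background. Their windows held 0 to 9 peaks with a median of 3, against a median of 4 over all protein-coding genes. Pou2f3, of skin and chemosensory cells, had 9, Pou2f1, a broadly expressed octamer factor, had 6, and Pou2f2, of B cells, had 0. By this count Pou3f1, Pou3f3 and Pou2f3 were the POU genes with the most peaks.

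Of 14 genes known as partners or targets of class 3 POU factors, 6 passed within 1 Mb, and the median over the 14 was 10.5 peaks. These were Sox11 (32 peaks) and Sox4 (31), regulators of new neurons, Sox2 (17), a partner of POU factors in neural progenitors, Myt1l (16), a neuronal zinc finger factor, Cdk5r1 (15), the activator of Cdk5 in migrating neurons, and Dab1 (13), which relays Reelin signals. By regulatory domain 6 of 14 passed as well, with Cux2 (7 peaks), an upper-layer marker, and the Notch ligand Dll1 (7) in place of Cdk5r1 and Dab1. Nes and Fabp7, radial glial genes, had no peak in their domains. The share of all genes that passed was again 6.87% and 1.13%, and no test of the list was made. The list was chosen with earlier results of these data known. The paper already names Sox4 and Sox11 among its genes with the most peaks, so the list is not independent of these peaks.

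Whether the peaks reflect the labelled tissue was checked with marker genes. Within 1 Mb, 4 of 10 dorsal cortex genes (Emx1, Neurod2, Neurod6 and Neurog2) and none of 8 genes of other tissues passed the exact binomial test, against 6.87% of all genes. By regulatory domain these numbers were 5 of 10, with Eomes added, and 0 of 8, against 1.13% of all genes. The counts of 0 are near these background shares. These lists too were chosen with earlier results of these data known.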

How the data were processed

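Dorsal cerebral wall chromatin gave 1 p300 ChIP-seq library and 1 input library. The authors aligned short reads uniquely to mm9 with ELAND, called peaks against the input with MACS (1.4 in the submitters' processing notes), and discarded those on exons, near start sites or suspected of non-unique mapping. The deposited BED list gives coordinates and no score, so depth per peak is unknown. Data of the input library were not analysed here.

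Positions were compared with NCBIM37 and GENCODE vM1 in Python 3.11.15 with numpy 2.4.6, scipy 1.17.1, pandas 2.3.3, pysam 0.24.0 and blastn 2.17.0, and plotted with matplotlib 3.10.9. Midpoints in each gene's window, and in its regulatory domain (5 kb upstream to 1 kb downstream of the start site, extended up to 1 Mb to the nearest such region; without GREAT's curated domains), were compared with its share of assembled bases by an exact binomial test (one-sided), adjusted by the Benjamini-Hochberg method over all protein-coding genes and called at an adjusted p under 0.05. Pairs of genes were compared by a two-sided exact conditional binomial test, adjusted over 6 pairs. No test compares samples. Named genes were the family, the other POU genes, a list of partners and targets, tissue markers and the genes nearest to member peaks. All member peaks are named, and sequences are shown for the nearest peak of Pou3f1 and Pou3f3, the widest of Pou3f1 and Pou3f2 and around each octamer. Some motif and sequence results are not reported here. Members and lists were chosen with earlier results of these data known. The tests and motif search were tested on simulated or brute-force counts. Alternatives changed the distance, the peaks counted, the overlap, the start site, the rate and the genes. A rate over sequence outside exons and start sites was added after the data were seen.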

Additional observations from a re-analysis of the deposited data

How the results depend on the processing

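With 1 library of each kind, no replicate could be left out. No paired analysis was possible because each group holds 1 sample. The number of genes passing within 1 Mb, 1537, became 914 within 500 kb, 468 within 250 kb, 198 within 100 kb, 816 with the wide peaks, 1000 with peaks under 5 kb apart joined and 2744 when all annotated genes were tested. Pou3f1 did not pass at 500 kb (fold 2.70), 250 kb (3.09) or 100 kb (5.79), with the wide peaks (3.08) or at the rate of its chromosome (2.22). It passed under the other alternatives for windows. Its adjusted p over the alternatives for windows ran from 0.00448 to 0.515 (exact binomial test). Pou3f3 passed with the wide peaks only (3.46), where 7 of its 9 peaks belong to a single run. Pou3f2 went to a fold of 0 within 250 and 100 kb, and to 0 in a domain drawn between all annotated genes. For domains the 252 genes passing became 153 with wide peaks and 158 with joined peaks, and Pou3f1 passed only between named genes (4.49). Of the 3 pairs that passed, 0 did within 500 kb. Pou3f2 against Pou3f4 was also lost with joined peaks (difference 6, adjusted p = 0.0627, exact test) and wide peaks (5), and Pou3f1 less Pou3f3 turned to -1 with wide peaks. In the middle 500 bp the share of peaks with a POU motif was 41.2%. Peaks within 500 kb had a median distance of 297.3 kb, by construction. The cause of the other changes was not tested. Fewer peaks are counted at shorter distances and in the list of wide peaks, which limits what those tests can call.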

Other observations

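Leaving aside genes known by a model or clone name, Pou3f2 and Pou3f3 each start in an interval of about 2 Mb without another protein-coding gene, and both intervals continue past the limit of 1 Mb. The interval of Pou3f2, 2139 kb from Fbxl4 to Mms22l, held 14 peaks, where 5.54 would be expected from its length. Of these, 5 lay within 1 Mb of the gene and 9 lay 1002 to 1942 kb upstream. The interval of Pou3f3, 2046 kb from Mrps9 to Tmem182, held 18 peaks against 5.30 expected, of which 10 lay within 1 Mb and 8 lay 1045 to 1669 kb upstream. Around Pou3f1 the interval from Rragc to Utp11l was 776.2 kb and held 9 peaks against 2.01 expected, all within 1 Mb. The interval of Pou3f4, 2015 kb from Sh3bgrl to Cylc1, held none against 5.22 expected at the rate of the whole genome. These intervals were chosen after the peaks were seen and were not tested. All expected numbers use the rate of the whole genome, and no share over like intervals elsewhere is given beside them.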
